A study of Mus musculus with 21 samples.

Results

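RNA-seq was used to compare dermal fibroblasts from healing mouse skin that carried a CRISPR/Cas9 edit of Prrx1 with fibroblasts of the same origin that did not. The comparison was defined by the sample labels alone: 3 wound-healing fibroblast cultures of genotype SG_PRRX1 (sgPrrx1) against 3 of genotype WT_PRRX1 (WT), 6 of the 21 cultures in the series. The other 15 cultures are mouse embryonic fibroblasts (MEF) labelled C57BL/6, 3 each of WT, of a Prrx1 guide and of a Prrx1 mutant allele (KI_PRRX1), and cancer-associated fibroblasts from MMTV-PyMT mammary tumors (MMTV-CAF) labelled FVB/NJ, 3 WT and 3 sgPrrx1. The MEF with the mutant allele are not used here. The rest are used only where a difference from the wound-healing fibroblasts is given.

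All 6 cultures came from C57BL/6 mice, from the dorsal wound area at day 10 after wounding, and were immortalized by overexpressing human papillomavirus oncogenes (HPV E6/E in the labels). They were grown without further treatment in DMEM with 10% FBS until nearly confluent. The sgPrrx1 cells received a single-guide RNA against Prrx1 with Cas9, and the WT cells a control guide (SgNS). The age and sex of the mice, the number of mice, the share of edited alleles and whether each arm is 1 line or clone are not given in the sources used here. Nothing states that replicates 1 to 3 are separate derivations, so p-values measure the spread between these samples, which may be technical. RNA of whole cultures was sequenced, so fewer cells of a type and less RNA per cell cannot be told apart.

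Prrx1 is a paired-related homeodomain transcription factor of limb, facial and dermal mesenchyme. It is expressed in fibroblasts and is studied for its part in the activated, contractile and matrix-producing state called the myofibroblast. After wounding, fibroblasts enter the wound bed, lay down fibronectin and collagens, acquire smooth muscle actin fibers and signal to keratinocytes, endothelium and immune cells through growth factors and chemokines. Homeodomain proteins commonly bind DNA at sites with a TAAT core, and paired-type dimers at palindromes of it.

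The letters TAATTA, which read the same on both strands, were searched in the RefSeq promoters of GRCm38.p6 (250 bases before and 50 after each annotated start). They occurred in 5.29% of all 32851 promoters and in 2.56% of the 13388 promoters of tested genes. The share was 2.84% (25 of 879) for genes at least 2-fold lower in sgPrrx1 cultures and 4.10% (46 of 1123) for genes at least 2-fold higher. The palindrome of paired-type dimers, TAAT and ATTA with any 3 bases between, occurred in 0.179% (24) of the promoters of tested genes, in 1 of those of 2-fold lower genes and in 1 of those of 2-fold higher genes. 4 promoters are shown because they belong to the targeted gene, to an elastic fiber gene that fell and holds the motif, and to the genes with the largest fall and the largest rise among those with a mean above 10 CPM (a read count scaled to the size of its library, as explained with the depths). Capitals mark TAATTA; its positions are -173 to -168 from the start in Prrx1 and -107 to -102 in Fbln5, and the letters are not in the windows of Itga11 and Gdf10. The start in the Prrx1 window lies inside the annotated gene, 1495 bases from its outermost start, and that in the Fbln5 window 635 bases. All are written 5′ to 3′ on the strand of the gene.
Prrx1, minus strand, chr1:163313601-163313900: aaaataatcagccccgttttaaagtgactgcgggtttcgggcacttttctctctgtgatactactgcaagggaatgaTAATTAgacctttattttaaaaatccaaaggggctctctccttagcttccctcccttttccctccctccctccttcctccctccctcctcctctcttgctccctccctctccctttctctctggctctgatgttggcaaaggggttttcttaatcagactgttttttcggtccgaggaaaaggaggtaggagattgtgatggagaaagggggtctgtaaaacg
Fbln5, minus strand, chr12:101818435-101818734, the downstream of its 2 windows: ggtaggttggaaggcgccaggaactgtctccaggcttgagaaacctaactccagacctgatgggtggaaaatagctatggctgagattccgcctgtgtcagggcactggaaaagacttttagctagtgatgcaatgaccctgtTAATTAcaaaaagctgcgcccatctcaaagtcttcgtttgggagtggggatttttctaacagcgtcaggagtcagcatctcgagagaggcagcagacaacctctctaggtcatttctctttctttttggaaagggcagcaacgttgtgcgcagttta
Itga11, plus strand, chr9:62677605-62677904: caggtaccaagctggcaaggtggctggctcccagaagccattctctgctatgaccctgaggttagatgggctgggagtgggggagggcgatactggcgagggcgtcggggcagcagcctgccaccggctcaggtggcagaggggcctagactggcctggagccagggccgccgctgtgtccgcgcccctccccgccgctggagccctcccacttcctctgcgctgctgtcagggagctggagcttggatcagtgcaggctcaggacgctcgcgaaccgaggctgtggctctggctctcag
Gdf10, plus strand, chr14:33923337-33923636: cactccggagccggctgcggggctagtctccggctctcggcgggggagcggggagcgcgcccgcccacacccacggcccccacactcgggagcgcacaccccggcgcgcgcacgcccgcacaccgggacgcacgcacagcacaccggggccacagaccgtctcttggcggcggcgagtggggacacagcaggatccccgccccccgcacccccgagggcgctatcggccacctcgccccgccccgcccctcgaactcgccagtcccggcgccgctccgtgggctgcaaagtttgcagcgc

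Each culture held 69588655 to 91588690 counts over 15066 to 15606 genes with a count. Values below are CPM, the count of a gene per 1000000 counts of the TMM-scaled library, listed in the order of replicates 1, 2 and 3, and log2 fold changes (sgPrrx1 over WT) are given ± SE from edgeR's quasi-likelihood fit with 3 cultures a group. Most markers on the endothelial, immune, keratinocyte and melanocyte and Schwann lists were too low to be tested, though some were expressed. Pecam1 and Tie1 of endothelium, Sox10 and Tyr of melanocytes and Schwann cells, Cd3e and Adgre1 of leukocytes and Krt1 and Krt15 of keratinocytes had no count in any culture. Ptprc, the pan-leukocyte marker, averaged 0.0114 CPM in WT and 0.0115 in sgPrrx1, and Krt14 of basal keratinocytes 0.0152 and 0.0148. Summed over the 15 immune markers the level was 15.1 to 16.9 CPM in WT and 17.4 to 18.0 in sgPrrx1, and over the 15 keratinocyte markers 60.9 to 66.8 and 73.8 to 78.1 (Krt19 44.9 and 60.6 on average). Of the 5 immune markers tested, 3 were called higher in sgPrrx1, 2 of them at least 2-fold, and 0 lower. Of the 7 keratinocyte markers tested, 1 was called higher (Krt19), 2 lower (1 of them at least 2-fold) and 4 did not pass. All 3 endothelial markers tested were called at least 2-fold lower in sgPrrx1, with a median log2 fold change of -1.69. Among them Kdr, the VEGF receptor 2 gene, was at 298, 303 and 304 CPM in WT and 145, 150.0 and 145 in sgPrrx1 (-1.04 ± 0.0209). The Y-linked transcripts Eif2s3y, Uty and Kdm5d were present in all 6 cultures, with Eif2s3y at 26.1, 25.2 and 25.3 in WT and 24.2, 24.98 and 23.6 in sgPrrx1. The Y-linked helicase Ddx3y did not follow them: it was at 21.3, 20.9 and 23.1 in WT and 2.02, 2.03 and 2.27 in sgPrrx1 (log2 fold change -3.37 ± 0.0660, adjusted p = 9.93e-10).

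Prrx1 itself (chr1:163245119-163315145, minus strand, GRCm38.p6) was lower in every edited culture but was not absent. It measured 152, 148 and 157 CPM in WT and 67.4, 66.5 and 67.6 in sgPrrx1. The groups did not overlap, and sgPrrx1 held 44.0% of the WT level (log2 fold change -1.18 ± 0.0258, adjusted p = 1.72e-09). Counts over a whole gene do not show whether the remaining transcript carries the edit, and protein was not measured in these files. The related gene Prrx2 was lower by a smaller amount, at 22.4, 22.9 and 21.2 in WT and 16.9, 17.8 and 16.5 in sgPrrx1 (-0.38 ± 0.0437, adjusted p = 5.49e-05).

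The 2 groups differed at most expressed genes, mainly by small amounts. Of 13939 genes tested, 5479 were lower in sgPrrx1 (39.3%) and 5332 higher (38.3%) at an adjusted p under 0.05. At least 2-fold changes were 984 lower (7.06%) and 1195 higher (8.57%), and at least 4-fold changes 460 and 419. The median absolute log2 fold change of called genes was 0.45, and 54.6% of them changed by under 0.5. The median over all tested genes was 0.0044, and the biological coefficient of variation between replicates was 0.0685. A count of called list members is therefore read below against 39.3% lower and 38.3% higher, and against 7.06% and 8.57% for 2-fold changes. Groups without overlap were as common: 5638 tested genes were lower and 5559 higher in sgPrrx1 with no overlap. A lack of overlap, given below for single genes, therefore does not set a gene apart.

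**Figure D1:**
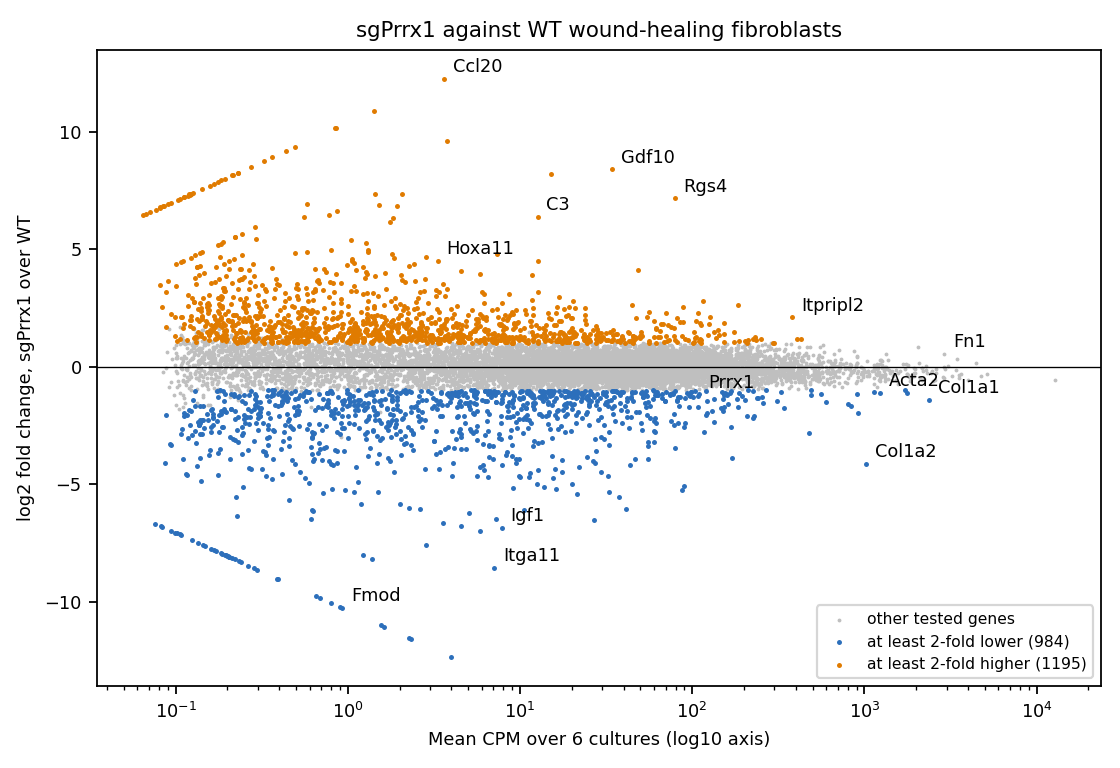
Mean level against change for the 13939 tested genes. The x axis is the mean CPM over the 6 cultures on a log10 axis, the y axis the log2 fold change of sgPrrx1 over WT; blue points are the 984 genes called at least 2-fold lower, orange points the 1195 called at least 2-fold higher, grey points all others, and labels mark Prrx1 and genes named in the text. The cloud centers on 0, and Col1a2 stands out among the most abundant genes.

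The largest fall among genes above 10 CPM was in Itga11. Itga11, the alpha subunit of a collagen-binding integrin of fibroblasts, measured 13.4, 14.9 and 13.9 CPM in WT and 0, 0.0444 and 0.0691 in sgPrrx1, a log2 fold change of -8.55 ± 0.24 (adjusted p = 7.04e-09). It was nearly silent in all edited cultures. Igf1, the growth factor that wound fibroblasts and macrophages supply, went from 15.1, 15.9 and 15.6 to 0.208, 0.0778 and 0.111 (-6.86 ± 0.16, adjusted p = 2.61e-09). Sfrp1, a secreted Wnt antagonist, went from 54.5, 52.3 and 53.5 to 0.658, 0.478 and 0.581 (-6.55 ± 0.0698). Neither gene overlapped between groups. Adm, the vasodilator peptide adrenomedullin, fell by 5.31 ± 0.0623 and Il1rn, the interleukin-1 receptor antagonist, fell by 5.40 ± 0.0457. Gjb2 (connexin 26, -7.01 ± 0.15), Fbln7 (a fibulin, -6.11 ± 0.18), the glutamate transporter gene Slc1a6 (-6.47 ± 0.18), Brinp3 (-6.04 ± 0.0346) and Fam150a, a ligand gene of the kinases Alk and Ltk (-5.53 ± 0.0998), complete the 10 largest falls.

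The largest rises at this abundance began with Gdf10, a TGF-beta superfamily ligand. It measured 0.148, 0.309 and 0.156 CPM in WT and 68.7, 66.8 and 68.3 in sgPrrx1, a log2 fold change of 8.39 ± 0.11 (adjusted p = 1.47e-10). The edited cultures were tightly grouped and far above the WT cultures. Rgs4, a brake on G protein signaling, went from 1.30, 0.978 and 1.02 to 152, 161 and 159 (7.16 ± 0.0799). C3, the central complement component, went from 0.364, 0.244 and 0.276 to 25.1, 24.9 and 24.96 (6.39 ± 0.0847). Both were low in all WT cultures. The carboxylesterase gene Ces2g (8.21 ± 0.13), the apoptosis-related Bcl2l15 (4.81 ± 0.10), the serpin gene Serpina3h (4.47 ± 0.0659), the adaptor gene Efs (3.89 ± 0.0536) and the BMP-pathway Smad gene Smad9 (3.18 ± 0.0755) were also raised. Serpina3h and Ces2g belong to clusters of close paralogs, whose reads the counting could split. Atp6v0c and Prl2c3 also ranked here, but each rested on 1 culture: Atp6v0c was at 5.00, 5.33 and 5.303 in WT and 6.26, 11.2 and 257 in sgPrrx1, and Prl2c3 at 0.955, 0.605 and 0.588 and 28.2, 2.99 and 1.99. Without that culture (sgPrrx1 replicate 3 and 1) the log2 fold changes were 0.75 and 1.80.

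13 genes were counted in one group only, with at least 100 counts in every culture of the other and 0 in all 3 cultures of the first. With the floor of 3 counts over a group, Fmod, a small leucine-rich proteoglycan that binds collagen fibrils, was at least 154-fold lower in sgPrrx1 (counts 161, 153 and 147 in WT). Hsd11b1, which regenerates active glucocorticoid, was at least 115-fold lower, S100g, a calcium-binding protein gene, at least 269.9-fold and Cables1, a Cdk5-associated gene, at least 258-fold. The other 5 genes at 0 in sgPrrx1 were Sprr2k, 2210409E12Rik, Gm15698, Gm5662 and Gm8979. In the other direction, Ccl20, a chemokine that attracts Ccr6-bearing leukocytes, had counts of 664, 702 and 455 in sgPrrx1 and 0 in WT, at least 602-fold higher. The inflammatory cytokine Il1a was at least 141-fold higher, Nefl, a neurofilament gene, at least 235-fold and Heph, a copper-dependent iron oxidase, at least 141-fold. 11 of these 13 genes stayed under 5 CPM in the group where they were present; 2210409E12Rik and Ccl20 were above it.

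By amount of RNA, the largest movements were in abundant genes. Among those that fell were the elongation factor gene Eef1a1 (from 15332 ± 249 to 10318 ± 126 CPM, mean ± SD), Col1a1, Col1a2, the galectin gene Lgals1 (-0.57 ± 0.0199) and the chaperone gene Hspa8 (-0.42 ± 0.0186). Those that rose were Fbln2 (1475 ± 17.7 to 2629 ± 23.5), Fn1, the ribosomal protein gene Rps12 (0.34 ± 0.0521), the poly(A)-binding protein gene Pabpc1 (0.53 ± 0.0134) and Itpripl2 (144 ± 4.60 to 616 ± 3.48).

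Markers used to recognize fibroblasts fell as a group. All 12 were called lower, 10 of them at least 2-fold, with a median log2 fold change of -1.71 beside 0.0044 over all tested genes; their summed level was 10080.0 to 10160.0 CPM in WT and 3862 to 3918 in sgPrrx1. Thy1, a surface glycoprotein used to sort fibroblasts, measured 52.2, 55.2 and 47.8 in WT and 2.82, 2.999 and 3.14 in sgPrrx1 (-4.12 ± 0.0664, adjusted p = 3.72e-10). Pdgfrb, the PDGF receptor beta, measured 151, 151 and 155 and 25.9, 25.6 and 26.2 (-2.56 ± 0.0236), and Pdgfra, the alpha receptor, 59.8, 62.4 and 61.5 and 21.8, 21.8 and 22.3 (-1.48 ± 0.0281). None of these 3 overlapped between groups. S100a4 (FSP1) changed by -1.67 ± 0.0494, Dcn (decorin) by -1.20 ± 0.13, Ddr2 (a collagen receptor kinase) by -0.73 ± 0.0196 and Vim (vimentin), the smallest change of the list, by -0.49 ± 0.0187. Fap, the fibroblast activation protease, was low in WT (1.57 CPM) and lower in sgPrrx1 (0.0430, -5.23 ± 0.50), and Lum (lumican) was at 0.164 CPM in WT with no count in sgPrrx1 (at least 13.6-fold lower).

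Markers that divide dermal fibroblasts into subsets did not move together. Of 19 tested, 9 were lower and 8 higher (2-fold: 8 and 4). Crabp1, a retinoic acid binding protein of papillary and wound fibroblasts, fell from 317, 328 and 307 to 20.9, 22.4 and 21.5 CPM (-3.88 ± 0.0367). Dpt (-4.36 ± 0.16), Mest (-4.26 ± 0.12) and Ly6a (Sca-1, -2.38 ± 0.0504) also fell. Cd34 rose from 67.9, 68.2 and 71.8 to 178, 179.8 and 175 (1.36 ± 0.0269) and Dlk1, a marker of reticular dermis, by 1.47 ± 0.0178. Each of these groups was without overlap. Of the mural cell markers, which overlap with those of myofibroblasts, 3 of 6 tested were lower (Des -3.18 ± 0.21, Pdgfrb, Cspg4 -1.73 ± 0.0663) and 2 higher (Mcam 1.46 ± 0.0342, Rgs5 3.52 ± 0.59).

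Among fibrillar collagens, which form the tensile fibrils of the dermis, 7 of 11 were lower and 3 higher (2-fold: 4 and 3). The abundant ones fell. Col1a2, the alpha-2 chain of type I collagen, measured 1954, 1893 and 1988 CPM in WT and 112, 109 and 110.0 in sgPrrx1 (-4.14 ± 0.0221, adjusted p = 3.95e-12). Its partner chain Col1a1 measured 3465, 3347 and 3494 and 1293, 1268 and 1300.0 (-1.42 ± 0.0181, adjusted p = 1.12e-10). The 2 chains of the same trimer thus changed by unequal amounts, Col1a2 to 5.67% of WT and Col1a1 to 37.5%. Col3a1, the type III chain of early scar, changed by -1.74 ± 0.0248, Col5a2 by -1.20 ± 0.0160 and Col5a1, which starts fibrils, by -0.24 ± 0.0155. The 3 that rose, Col27a1 (2.42 ± 0.12) and the cartilage collagens Col2a1 (1.24 ± 0.11) and Col11a2 (1.04 ± 0.19), were all below 10 CPM in both groups.

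Other collagens showed 13 lower and 7 higher members of 24 tested. The 3 chains of type VI collagen, which forms beaded microfilaments around cells, all fell: Col6a1 fell by 1.47 ± 0.0177, Col6a2 fell by 1.72 ± 0.0248 and Col6a3 fell by 2.39 ± 0.0323. Col12a1, which sits on fibril surfaces, measured 282, 287 and 287 in WT and 49.2, 49.2 and 47.4 in sgPrrx1 (-2.55 ± 0.0229). Col8a1 changed by -1.15 ± 0.0188, and the basement membrane chains Col4a1 and Col4a2 by -0.56 ± 0.0385 and -0.52 ± 0.0170. Col7a1, the anchoring fibril collagen, rose by 0.81 ± 0.0354. The remaining members with 2-fold rises (Col8a2, Col20a1 and Col6a4) stayed under 2 CPM.

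Small leucine-rich proteoglycans, which coat collagen fibrils and bind growth factors, fell more than any other list of matrix genes by its median. Of 11 tested, 9 were lower, all 9 of them at least 2-fold, and 1 was higher, with a median of -2.67. Aspn (asporin) measured 5.297, 5.88 and 5.86 CPM in WT and 0, 0 and 0.0968 in sgPrrx1 (-7.58 ± 0.43, adjusted p = 4.65e-07). Ogn (osteoglycin) measured 77.5, 76.3 and 80.5 and 19.1, 21.5 and 21.2 (-1.92 ± 0.0476). Bgn (biglycan), a member expressed in all cultures at high level, measured 1542, 1524 and 1542 and 744, 738 and 719 (-1.07 ± 0.0157). All 3 were without overlap, and Prelp (-4.36 ± 0.17) and Omd (-3.64 ± 0.26) also fell, beside Fmod, Lum and Dcn above. Podn was the member that rose (0.49 ± 0.17, from 1.25 to 1.75 CPM), and without any 1 of 4 cultures its adjusted p was 0.0647 to 0.111.

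In the elastic fiber list, microfibril and fibulin genes split. 14 of 19 tested members were lower and 5 higher (2-fold: 8 and 3). Fbln5, which organizes elastin onto microfibrils and whose promoter is printed above, measured 125, 128 and 124 CPM in WT and 27.0, 24.7 and 24.3 in sgPrrx1 (-2.31 ± 0.0407). Efemp1 (fibulin-3) measured 82.4, 86.2 and 79.1 and 4.804, 4.61 and 4.19 (-4.18 ± 0.0553), and Mfap5, a microfibril glycoprotein, 16.7, 17.0 and 16.8 and 1.09, 1.57 and 0.885 (-3.81 ± 0.14). These 3 fell in every edited culture. Fbn1, the main adult fibrillin, fell by 1.26 ± 0.0232 while Fbn2, the fibrillin of development, rose by 2.23 ± 0.0531 from 3.21 to 15.1 CPM. Of the latent TGF-beta binding proteins, Ltbp1 fell by 0.76 ± 0.0357, and Ltbp2 and Ltbp4 rose by 1.84 ± 0.0262 and 1.24 ± 0.0336.

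Enzymes that process and crosslink collagen were lower in 20 and higher in 7 of 28 cases (2-fold: 7 and 1; median -0.56). Lox, lysyl oxidase, which starts crosslinks in collagen and elastin, measured 835, 838 and 829 CPM in WT and 118, 118 and 113 in sgPrrx1 (-2.84 ± 0.0211, adjusted p = 1.68e-11). The related Loxl1 fell by 1.38 ± 0.0224 and the transglutaminase gene Tgm2 by 2.23 ± 0.0619. P4hb, the shared subunit of collagen prolyl hydroxylase, fell by 1.002 ± 0.0106 and Pcolce, an enhancer of propeptide removal, fell by 1.001 ± 0.0154. The collagen chaperone gene Serpinh1 varied widely between replicates (1263, 2258 and 1249.5 in WT, 1178, 691 and 1213 in sgPrrx1) and did not pass (adjusted p = 0.06). Adamts3, a procollagen N-propeptidase gene, was the member raised at least 2-fold (2.20 ± 0.0385).

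**Figure D2:**
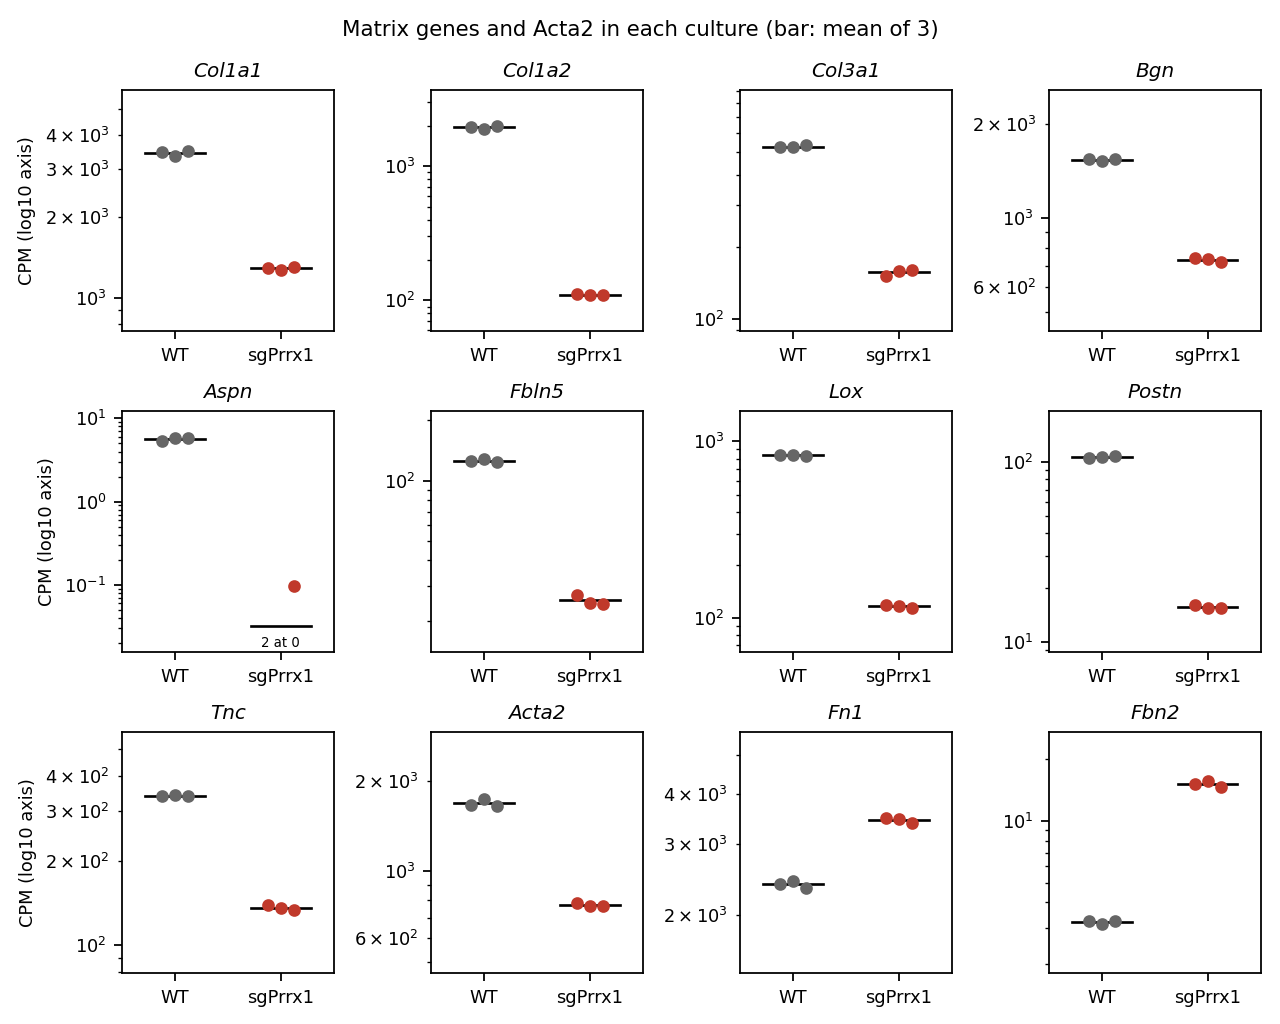
CPM of 11 matrix genes and Acta2 in each of the 6 cultures (y axis, log10; one panel per gene; grey circles WT, red circles sgPrrx1; bars mark group means). The WT and sgPrrx1 points are separated in each panel; 10 of the 12 genes are lower in sgPrrx1 and Fn1 and Fbn2 are higher.

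Matricellular and adhesive proteins, secreted modulators of cell contact, moved both ways. 12 of 21 tested were lower and 8 higher (2-fold: 10 and 2). Postn (periostin), a wound-bed protein made by activated fibroblasts, measured 104.9, 107 and 109 CPM in WT and 16.0, 15.4 and 15.5 in sgPrrx1 (-2.77 ± 0.0282, adjusted p = 4.25e-11). Tnc (tenascin-C), also a protein of provisional matrix, measured 340.4, 343 and 339.7 and 138, 135.2 and 133 (-1.33 ± 0.0209), and Sparc, a collagen-binding counteradhesive protein, 1459.8, 1495 and 1428 and 375, 379 and 379 (-1.95 ± 0.0188). All 3 groups were without overlap. Wisp2 fell by 4.68 ± 0.0747, Vcan (versican) by 1.92 ± 0.0287 and Spp1 (osteopontin) by 1.51 ± 0.0265. Fn1 (fibronectin) went the other way, at 2385, 2429 and 2342 in WT and 3489.8, 3471 and 3382 in sgPrrx1 (0.53 ± 0.0168). Ctgf, a target of TGF-beta and Yap signaling, rose by 0.82 ± 0.0214 and Cyr61, a related Yap target, by 0.29 ± 0.0124. Smoc1 and Smoc2, calcium-binding matricellular proteins, rose by 4.12 ± 0.22 and 2.04 ± 0.17 from under 2 CPM.

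Members of the basement membrane list, which leaves out the type IV collagen chains Col4a1 and Col4a2 that fell, rose more often than they fell. Of 14 tested, 10 were higher and 2 lower (median 0.55; 2-fold: 2 and 1). Hspg2 (perlecan) rose from 683, 674 and 683 to 1085, 1057 and 1069.5 CPM (0.65 ± 0.0149) and the laminin beta-1 gene Lamb1 by 0.88 ± 0.0207. Lama2, a laminin of mesenchyme and muscle, fell by 3.02 ± 0.45 and Nid2 by 0.62 ± 0.0276. Of integrin subunits, 11 of 18 were lower and 4 higher. Beside Itga11, Itga8 (-3.96 ± 0.37) and Itga6 (-1.16 ± 0.0446) fell. Itga2, another collagen-binding alpha subunit, rose by 2.04 ± 0.11 and Itgb4, the hemidesmosome subunit, by 2.06 ± 0.13, both to under 5 CPM. Itgb1, the beta partner of the collagen receptors, fell by 0.34 ± 0.0123.

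Contractile and actin genes, which mark the myofibroblast, were mostly lower and mostly by small amounts. 25 of 33 tested were lower and 8 higher, with 6 lower and 0 higher at 2-fold and a median of -0.44. Acta2, the alpha smooth muscle actin that defines myofibroblasts, measured 1658, 1735 and 1651 CPM in WT and 782, 766 and 764 in sgPrrx1 (-1.12 ± 0.0210, adjusted p = 7.74e-10). Actg2, the gamma smooth muscle actin, measured 109, 110.2 and 107 and 11.5, 11.9 and 11.8 (-3.21 ± 0.0278). The edited cultures were below all WT cultures in both. Tagln (SM22) fell by 0.57 ± 0.0217, Cnn1 (calponin) by 0.90 ± 0.0323, Tpm2 by 0.72 ± 0.0380 and Myl9 by 0.41 ± 0.0306. Among the 8 higher genes were the factors that drive this program through serum response elements, Srf (0.61 ± 0.0215), Mkl1 (0.52 ± 0.0216) and Mkl2 (0.64 ± 0.0344), and the structural genes Actn1 (0.47 ± 0.0213), Palld (0.48 ± 0.0199) and Smtn (0.66 ± 0.0213). The binding site of Srf, the CArG box, occurred in 1.37% of the promoters of 2-fold lower genes, 2.67% of those of 2-fold higher genes and 1.34% of those of all tested genes.

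Matrix proteases and their inhibitors divided. 18 of 31 tested were lower and 12 higher (2-fold: 8 and 6). Adamts5, an aggrecanase and versicanase, measured 145, 145 and 145 CPM in WT and 13.3, 12.8 and 13.5 in sgPrrx1 (-3.46 ± 0.0273). Plat, the tissue plasminogen activator, fell by 1.73 ± 0.0217, Mmp14, a membrane collagenase, by 0.84 ± 0.0183 and Mmp2, the gelatinase it activates, by 0.56 ± 0.0308. Of the tissue inhibitors, Timp1 and Timp3 fell by 0.54 ± 0.0177 and 0.49 ± 0.0187. Among serpins that rose were inhibitors of plasminogen activators: Serpine2 from 29.6, 29.0 and 29.3 to 203, 202 and 205 (2.79 ± 0.0208) and Serpinb2 from 12.02, 12.3 and 13.1 to 79.8, 76.0 and 76.4 (2.63 ± 0.0399). Each was higher in all edited cultures. The stromelysin genes Mmp3 (3.36 ± 0.28) and Mmp10 (2.41 ± 0.32) and the collagenase gene Mmp13 (3.25 ± 0.43) rose to at most 1.30 CPM on average.

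TGF-beta and BMP signaling genes changed in both directions. Of 53 tested, 22 were lower and 23 higher, shares near those of all tested genes. At 2-fold there were 11 and 11 (20.8% each, beside 7.06% and 8.57% of all tested genes). Among ligands, Inhbb (activin B subunit, -3.21 ± 0.0364), Bmp2 (-2.87 ± 0.12), Bmp4 (-1.43 ± 0.0775) and Tgfb2 (-1.55 ± 0.0572) fell, while Tgfb1 rose by 0.99 ± 0.0269 from 35.0, 33.5 and 35.1 to 68.6, 68.5 and 68.7 CPM, as did Gdf10 above. Among receptors, Tgfbr2, the type II receptor that binds TGF-beta, measured 371, 367 and 371 in WT and 86.3, 86.1 and 85.3 in sgPrrx1 (-2.10 ± 0.0179, adjusted p = 2.11e-11). Its type I partner Tgfbr1 fell by 0.39 ± 0.0265, and Lrrc32 (GARP), which displays latent TGF-beta, fell by 2.50 ± 0.0540. The co-receptor Eng rose by 0.93 ± 0.0201. Of the receptor-regulated Smads, Smad3 fell by 0.33 ± 0.0237 and Smad2 did not pass (0.08 ± 0.0380, adjusted p = 0.0836).

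Id1 to Id4, known as early targets of BMP signaling, and the inhibitory Smads were among the higher members. Id1 measured 55.0, 56.4 and 54.3 CPM in WT and 191, 191 and 199 in sgPrrx1 (1.81 ± 0.0251, adjusted p = 1.61e-10). Id2, Id3 and Id4, the related inhibitors of bHLH factors, rose by 1.42 ± 0.0324, 1.10 ± 0.0229 and 2.43 ± 0.0630. Smad7, the inhibitory Smad of the TGF-beta and BMP receptors, measured 21.0, 19.5 and 21.4 and 89.7, 87.3 and 88.1 (2.10 ± 0.0377), and Smad6, that of BMP receptors, 4.59, 4.64 and 4.10 and 14.4, 13.4 and 13.2 (1.62 ± 0.0660). No group overlapped in these 3 genes. Among extracellular antagonists Grem1 fell by 1.27 ± 0.0240 while the activin antagonist gene Fst (2.19 ± 0.13) rose. A further activin antagonist, Fstl3, fell by 1.81 ± 0.0301.

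Growth factors and receptors of wound repair fell more often than they rose, 29 against 16 of 49 tested (2-fold: 18 and 6; median -0.52). The insulin-like ligands were both near 0 in sgPrrx1: beside Igf1, Igf2 measured 6.54, 13.4 and 7.22 CPM in WT and 0.139, 0.0889 and 0 in sgPrrx1 (-6.79 ± 0.52). The WT replicates of Igf2 differed among themselves, yet all were far above the edited cultures. Angpt1, which stabilizes vessels through Tek, fell by 4.19 ± 0.0962, the lymphatic growth factor gene Vegfd fell by 2.39 ± 0.0303 and Ptn (pleiotrophin) fell by 4.001 ± 0.0818. Hgf and Fgf10, which act from mesenchyme on epithelium, fell by 2.10 ± 0.15 and 1.93 ± 0.0489, whereas Fgf7, of similar action, changed little (-0.09 ± 0.0183). Egfr fell from 52.4, 55.0 and 53.4 to 17.3, 16.2 and 17.4 (-1.66 ± 0.0361). Several of its ligands rose: Ereg from 43.8, 43.6 and 43.4 to 166, 166 and 165 (1.93 ± 0.0191), Hbegf by 0.83 ± 0.0278 and Tgfa by 3.93 ± 0.28, the last to 2.42 CPM. Areg, a further ligand, fell by 1.05 ± 0.0905. Vegfa changed by 0.21 ± 0.0262 and Vegfc by 1.86 ± 0.0620.

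**Figure D3:**
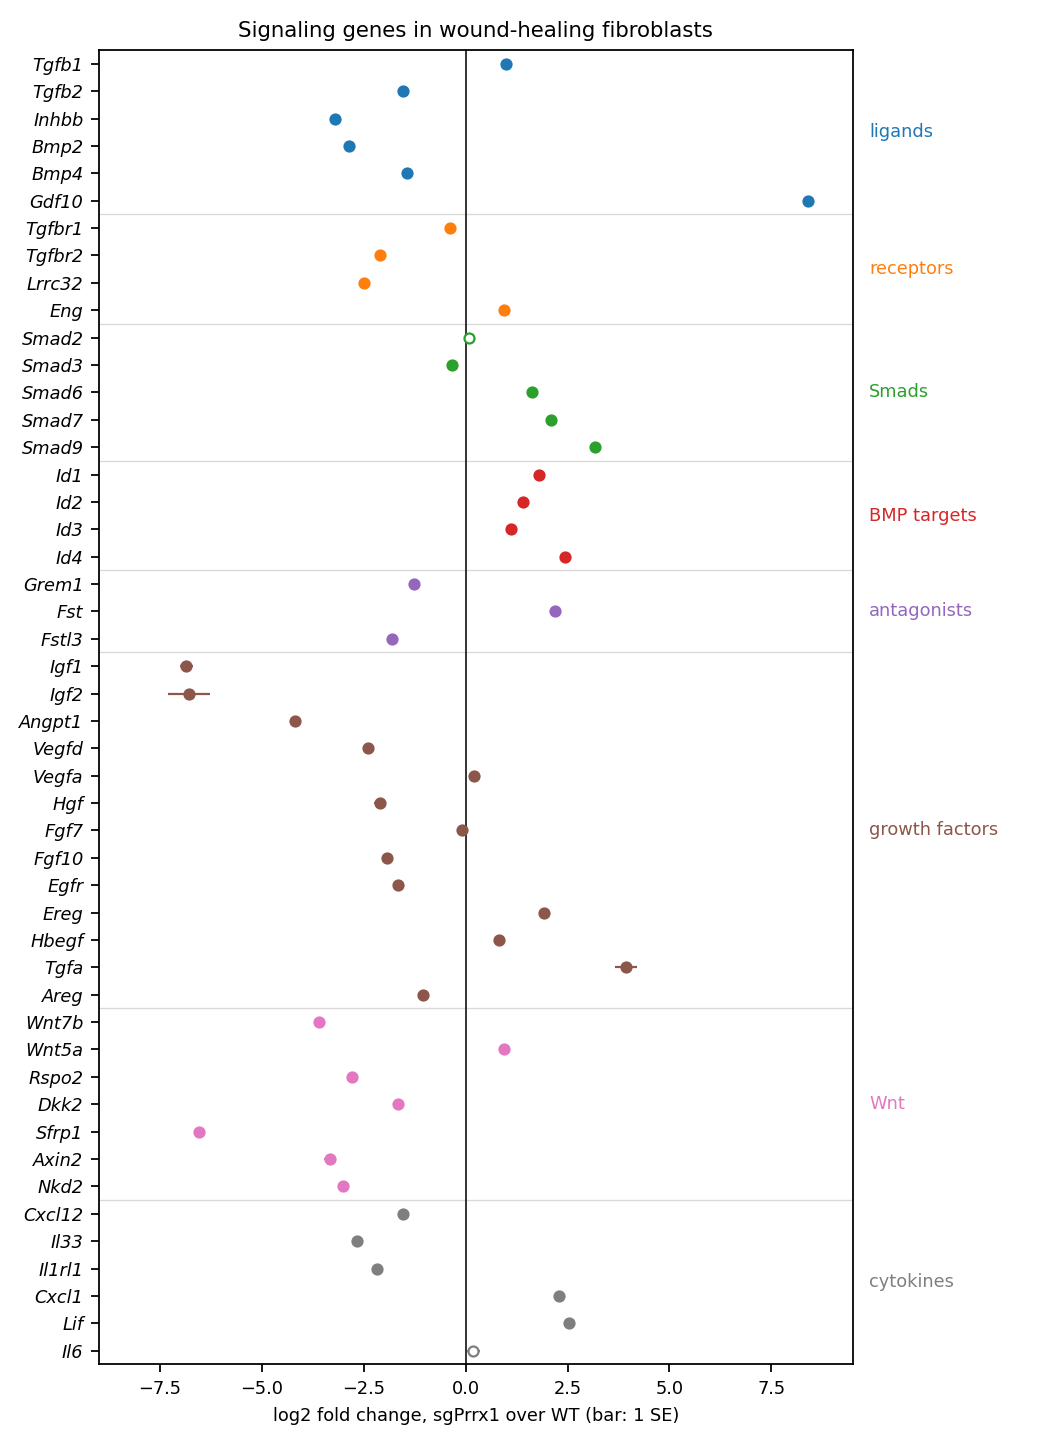
Log2 fold change of sgPrrx1 over WT (x axis, points, with bars of 1 SE) for signaling genes ordered by role (y axis: TGF-beta and BMP ligands, receptors and Smads, BMP targets and antagonists, growth factors and their receptors, Wnt genes, chemokines and cytokines). Filled points passed an adjusted p under 0.05 and open points did not; the BMP targets Id1, Id2, Id3 and Id4 and the inhibitory Smads lie to the right of 0, and Tgfbr2, Igf2, Angpt1 and Axin2 to the left.

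Wnt pathway genes were lower in 21 and higher in 12 of 43 cases (2-fold: 12 and 5). Axin2, a feedback target of canonical Wnt signaling, measured 12.2, 12.1 and 11.6 CPM in WT and 0.843, 1.42 and 1.31 in sgPrrx1 (-3.33 ± 0.15). The ligand gene Wnt7b measured 49.2, 50.6 and 52.2 and 3.73, 4.37 and 4.48 (-3.60 ± 0.0621). Both fell in all edited cultures. The potentiator gene Rspo2 fell by 2.79 ± 0.12 and the antagonist gene Dkk2 by 1.66 ± 0.0297, beside Sfrp1. Nkd2, a Wnt feedback inhibitor, fell by 3.01 ± 0.11 while its paralog Nkd1 rose by 6.93 ± 0.52 from 0.00800 to 1.16 CPM. Wnt5a, a noncanonical ligand, rose by 0.94 ± 0.0338. The Notch and Hedgehog list had 9 lower and 10 higher of 23, shares near those of all tested genes. At 2-fold there were 5 lower and 2 higher (21.7% and 8.7%, beside 7.06% and 8.57% of all tested genes). Its Hedgehog co-receptor gene Gas1 fell from 102, 98.9 and 102 to 10.1, 9.42 and 10.0 (-3.36 ± 0.0352) and the Hedgehog decoy gene Hhip by 2.29 ± 0.0546. The Notch ligand genes Jag1 and Jag2 rose by 1.09 ± 0.0724 and 1.07 ± 0.19.

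Of 35 chemokines and cytokines tested, 14 were lower and 14 higher, shares near those of all tested genes. Changes of at least 2-fold numbered 10 lower and 10 higher (28.6% each, beside 7.06% and 8.57% of all tested genes). Cxcl12, which retains leukocytes and progenitors, measured 387, 387 and 381 CPM in WT and 131, 134 and 133 in sgPrrx1 (-1.53 ± 0.0193). Il1rl1, the receptor of interleukin-33, measured 371, 377 and 367 and 77.4, 86.4 and 82.6 (-2.18 ± 0.0385), and its ligand Il33 9.25, 8.14 and 9.02 and 1.34, 1.28 and 1.58 (-2.66 ± 0.10). Ligand and receptor were both lower in every edited culture. Ccl9 fell by 5.01 ± 0.0820. The neutrophil attractant gene Cxcl1 rose from 22.8, 24.5 and 23.5 to 118, 117 and 114 (2.30 ± 0.0328) and Lif, an interleukin-6 family cytokine, from 26.0, 25.7 and 27.2 to 150.5, 151 and 154 (2.53 ± 0.0284). Cxcl5 (1.40 ± 0.0536), Cxcl16 (1.79 ± 0.0588) and Ccl5 (1.72 ± 0.0419) also rose, and Il6, low in all cultures, did not pass (0.19 ± 0.15, adjusted p = 0.281).

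Acute-phase and inflammatory genes rose in 17 and fell in 2 of 22 cases (2-fold: 11 and 2; median 1.05). The feedback targets of NF-kappaB Tnfaip3 and Nfkbia went from 35.3, 35.4 and 35.9 to 156, 152 and 95.1 CPM (1.92 ± 0.16) and from 36.4, 34.0 and 34.7 to 81.8, 85.5 and 87.7 (1.28 ± 0.0366). Relb rose by 1.22 ± 0.0386, the prostaglandin synthase genes Ptgs1 and Ptgs2 by 0.89 ± 0.0209 and 0.54 ± 0.0171 and Has2, a hyaluronan synthase gene, by 1.68 ± 0.0266. Steap4 (at least 72.2-fold) and Saa3 (7.34 ± 0.47) appeared at low level, 0.870 and 2.85 CPM. Socs3, a feedback inhibitor of Stat3 signaling, fell from 42.1, 40.1 and 40.8 to 14.3, 14.2 and 15.7 (-1.48 ± 0.0432). Of complement genes 8 of 13 were higher and 4 lower, C3 among the higher ones. Cd55, which shields cells from complement, had no count in WT and was at least 82.2-fold higher. The lectin pathway protease gene Masp1 fell by 3.86 ± 0.0709.

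Interferon-stimulated genes fell in 29 of 35 cases and rose in 3 (2-fold: 11 and 2; median -0.62). Isg15, a ubiquitin-like antiviral protein, measured 106, 106 and 101.4 CPM in WT and 43.7, 43.6 and 46.8 in sgPrrx1 (-1.22 ± 0.0350). Ifit3 fell by 1.76 ± 0.0291, the factor gene Irf1 by 1.66 ± 0.0430 and Zbp1 fell by 4.09 ± 0.18. Oasl1 and Oas3 were the members with 2-fold rises (1.10 ± 0.0327 and 1.42 ± 0.0972). In MHC class I presentation 18 of 24 were lower and 3 higher, with H2-K1 at -0.69 ± 0.0378, the immunoproteasome activator gene Psme2 at -1.05 ± 0.0322 and B2m, the shared light chain, not passing (-0.03 ± 0.0199, adjusted p = 0.176). The H2-Q and H2-T genes are near-identical copies, and their single values are uncertain.

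Among mesenchymal transcription factors 19 of 32 were lower and 10 higher. Runx3 fell from 13.1, 14.05 and 14.4 to 1.63, 1.53 and 1.71 CPM (-3.09 ± 0.0725), Tbx18 from 21.2, 20.5 and 21.4 to 5.72, 4.77 and 4.94 (-2.03 ± 0.0664) and Creb3l1, a driver of collagen secretion, from 58.1, 54.4 and 56.9 to 20.7, 18.5 and 18.6 (-1.55 ± 0.0483). All 3 fell in every culture. Nfib rose from 33.1, 34.0 and 32.1 to 109, 113 and 113 (1.75 ± 0.0307) and Foxf2 by 1.39 ± 0.0663, while its paralog gene Foxf1 fell by 1.18 ± 0.0730. The classical EMT factors moved little, with Twist1 at -0.26 ± 0.0355, Snai2 at -0.38 ± 0.0287 and Zeb1 at -0.36 ± 0.0260. Of 13 further factors of fibroblasts, a list of mixed families chosen with these data known, 4 were lower (Prrx1, Nfix, Prrx2 and Nr4a1), 8 higher and 1 did not pass. The study places Prrx1, Tead1, Junb, Klf4, Fosl2 and Klf13 in a circuit of 8 factors common to its mouse fibroblasts. It also shows Nfix, called lower above, among representative circuit factors. The circuit was drawn from the same fibroblast types and is not independent evidence of a direction. Beside the falls of Prrx1 and Nfix, Klf4 (1.63 ± 0.0378), Fosl2 (1.008 ± 0.0189), Tead1 (0.85 ± 0.0319), Klf13 (0.68 ± 0.0414) and Junb (0.30 ± 0.0249) rose. Tead1 was not on the list above. Cebpb did not pass, with 1 edited culture far below the others (51.4, 53.3 and 38.3 in WT, 41.0, 39.7 and 11.6 in sgPrrx1; adjusted p = 0.169).

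Genes that encode position along the body changed as well. Of 35 Hox genes tested, 18 were higher and 11 lower, and all 11 with 2-fold changes were higher. Hoxa11, a distal limb gene, measured 0.273, 0.309 and 0.264 CPM in WT and 6.61, 6.09 and 6.402 in sgPrrx1 (4.49 ± 0.12, adjusted p = 5.28e-09), Hoxd11 0.0455, 0.0643 and 0.0360 and 1.55, 1.48 and 1.65 (4.97 ± 0.28) and Hoxd13 0, 0 and 0.0240 and 0.508, 0.378 and 0.539 (5.64 ± 0.65). These 3 were almost silent in WT cultures and low in edited ones. Hoxb9, at 95.0 CPM in WT, fell by 0.53 ± 0.0271. Other positional factors split 16 lower to 15 higher of 31. En1, which marks the dorsal dermal lineage that forms scars, fell from 13.7, 13.5 and 11.7 to 5.77, 5.65 and 5.12 (-1.23 ± 0.0793). Gata4 rose from 2.18, 2.88 and 2.56 to 23.4, 22.99 and 22.1 (3.17 ± 0.0831). Axon guidance genes, used by fibroblasts as well as neurons for positional signals, had 14 lower and 16 higher members of 37. These shares were near those of all tested genes, but 2-fold changes were more common. They numbered 11 lower and 9 higher (29.7% and 24.3%, beside 7.06% and 8.57% of all tested genes). Slit3 and Slit2 fell by 2.003 ± 0.0316 and 1.32 ± 0.0238, and the netrin receptor gene Unc5b and its ligand gene Ntn1 rose, Unc5b from 52.1, 51.6 and 52.2 to 315, 314 and 325 (2.61 ± 0.0214) and Ntn1 by 2.01 ± 0.0514. Of cadherins, Cdh3 and Cdh13 fell by 1.46 ± 0.0280 and 2.63 ± 0.0775, Cdh2 (N-cadherin) rose by 1.04 ± 0.0201 and Cdh11, the fibroblast cadherin, fell by 0.20 ± 0.0220. Imprinted growth genes were lower in 14 and higher in 9 of 24 cases, with the noncoding RNA Rian at -2.18 ± 0.0283 and Meg3 at -1.35 ± 0.13.

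AP-1 and immediate early genes rose in 17 and fell in 5 of 25 cases. Fosl1, a Fos-family factor sustained by growth factor signaling, measured 38.4, 39.2 and 36.6 CPM in WT and 118, 120.2 and 117 in sgPrrx1 (1.64 ± 0.0302), whereas Fos measured 19.9, 20.4 and 20.1 and 9.40, 9.58 and 8.78 (-1.12 ± 0.0429) and Egr2 fell by 2.73 ± 0.0985. Cell cycle genes changed without a 2-fold member: 27 were lower and 16 higher of 50, with Pcna at -0.44 ± 0.0159, Ccnb1 at -0.70 ± 0.0177, Mki67 at 0.63 ± 0.0319 and Ccnd1 at 0.73 ± 0.0214. Of p53 targets and CDK inhibitors 16 of 27 were higher and 8 lower. Cdkn1a (p21) rose from 253, 245 and 253 to 569, 553 and 574 (1.18 ± 0.0217) and Perp from 30.5, 29.9 and 27.0 to 102, 102 and 102 (1.81 ± 0.0442), with no overlap. These cells carry papillomavirus oncogenes, which act on p53 and Rb proteins. Among apoptosis regulators, with 13 lower and 9 higher of 29, the inflammatory caspase genes Casp4 and Casp12 fell by 2.16 ± 0.0678 and 2.33 ± 0.0428, and the BH3-only genes Pmaip1 (Noxa) and Bcl2l11 (Bim) rose by 1.48 ± 0.0402 and 1.26 ± 0.0479.

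Metabolic and secretory lists were mostly lower, except that lipid and adipogenic genes divided and glycolysis and hypoxia genes rose more often than they fell. Cholesterol synthesis genes fell in 20 of 23 cases and rose in 2 (median -0.74), with Nsdhl at -1.40 ± 0.0285 and Fdps at -1.02 ± 0.0233. Srebf2, the regulator of the list, was among those that rose (0.18 ± 0.0172). Genes of ER stress and the integrated stress response fell in 25 of 29 cases (median -0.47). Psat1, of serine synthesis, fell from 1257, 1265 and 1269 to 549, 559.5 and 562 CPM (-1.18 ± 0.0143), and Hspa5 (BiP), the main ER chaperone, from 1940.3, 1962 and 1950.5 to 1173, 1189 and 1183 (-0.72 ± 0.0115). Lipid and adipogenic genes divided 15 to 14, with the desaturase genes Scd1 and Scd2 at -1.44 ± 0.0270 and -1.59 ± 0.0170 and Angptl4 at 1.55 ± 0.0351. Glycolysis and hypoxia genes had 18 higher and 9 lower members of 34, all but 3 by under 2-fold, and oxidative stress genes 16 lower and 7 higher of 27, with Aldh1a1 at -2.44 ± 0.0786 and Gsta4 at -5.10 ± 0.0915. Cytosolic ribosomal protein genes fell in 62 of 84 cases with a median of -0.19.

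**Figure D4:**
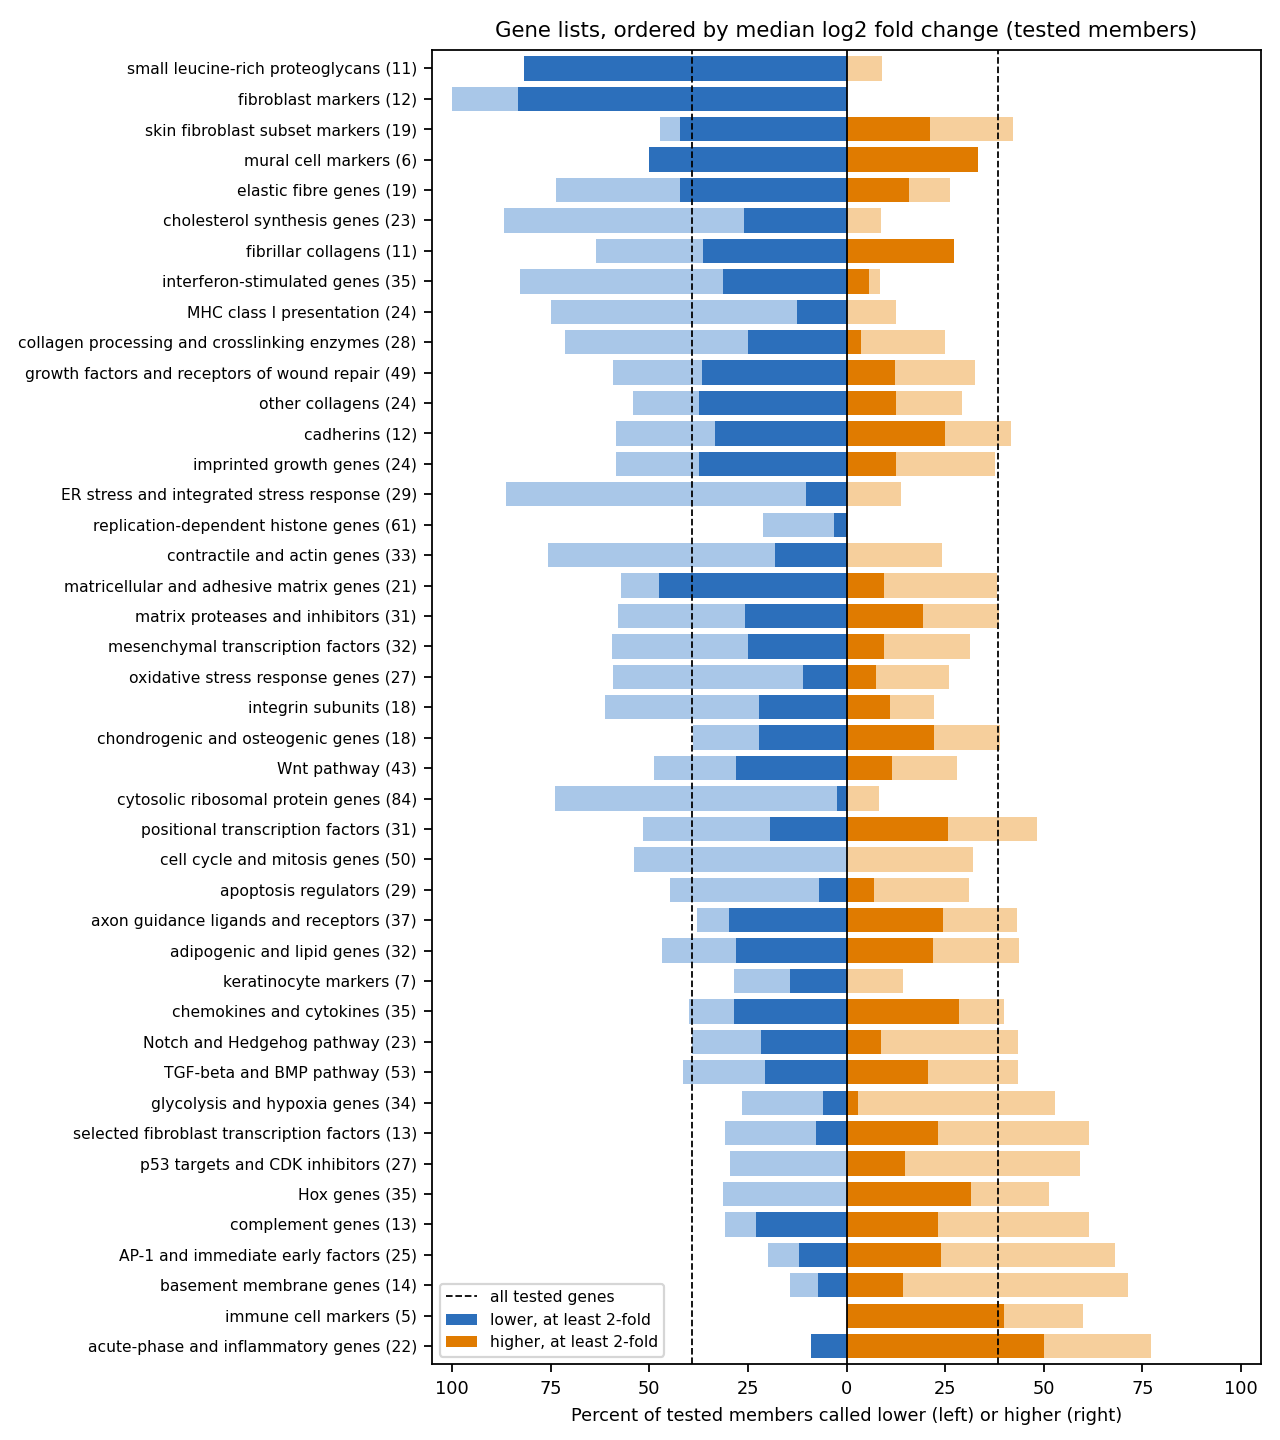
Share of tested members (x axis, percent) called lower (blue, to the left) and higher (orange, to the right) at an adjusted p under 0.05 in the 43 gene lists with at least 5 tested members, ordered by median log2 fold change from lowest at the top; dark parts are changes of at least 2-fold. Dashed lines mark the shares over all 13939 tested genes, 39.3% lower and 38.3% higher; fibroblast markers reach 100% lower.

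The size of the response was compared with that in MMTV-CAF from FVB/NJ mice and in MEF given the Prrx1 guide, 3 sgPrrx1 and 3 WT cultures each, through the interaction of fibroblast type and edit in edgeR. The types differ in tissue of origin and, for MMTV-CAF, in strain, and these cannot be told apart from the cell type. Prrx1 itself changed by -1.06 ± 0.0170 in MMTV-CAF and -0.60 ± 0.14 in MEF, against -1.18 ± 0.0258 in wound-healing fibroblasts. The difference was -0.12 ± 0.0310 (adjusted p = 0.00291) and -0.60 ± 0.16 (adjusted p = 0.00787), so the wound-healing cells had the largest fall of the 3. The response of 11329 of 14853 genes (76.3%) differed from MMTV-CAF and that of 8323 of 14354 (58.0%) from MEF.

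Col1a2 showed where the wound-healing fibroblasts stood apart. It changed by -4.14 ± 0.0221 in them, by -0.99 ± 0.0116 in MMTV-CAF and by -0.72 ± 0.0659 in MEF, with differences of -3.15 ± 0.0229 (adjusted p = 1.14e-16) and -3.43 ± 0.0545 (adjusted p = 1.79e-11). For Col1a1 the differences were 0.18 ± 0.0216 and -0.60 ± 0.0570. Lox fell by more in wound-healing fibroblasts than in either other type (-1.56 ± 0.0229 and -2.21 ± 0.15, adjusted p = 2.04e-14 and 4.11e-07). Acta2 fell by less than in MMTV-CAF, where it changed by -3.93 ± 0.0180 (difference 2.80 ± 0.0273, adjusted p = 7.49e-16), and its difference from MEF did not pass (-0.09 ± 0.15, adjusted p = 0.645). Postn also fell by less than in MMTV-CAF (-7.40 ± 0.0302 there, difference 4.62 ± 0.0358). Itga11 changed by -0.08 ± 0.0280 in MMTV-CAF and -4.72 ± 0.32 in MEF, with differences of -8.48 ± 0.21 and -3.83 ± 0.61.

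Some genes that rose in wound-healing fibroblasts fell in the others. Gdf10 changed by -3.20 ± 0.0586 in MMTV-CAF and -4.54 ± 0.23 in MEF, differences of 11.59 ± 0.15 and 12.91 ± 0.26. Id1 changed by -0.73 ± 0.0433 and -0.89 ± 0.19 (differences 2.54 ± 0.0490 and 2.69 ± 0.22, adjusted p = 2.12e-13 and 1.54e-06), and Has2 by -1.88 ± 0.0277 and -1.62 ± 0.0959. Col27a1 and Ltbp2 also rose in wound-healing fibroblasts and fell in both other types (Col27a1 -1.51 ± 0.0577 and -2.34 ± 0.20, Ltbp2 -0.23 ± 0.0167 and -1.30 ± 0.0899). Serpine2 rose in MMTV-CAF too (1.30 ± 0.0214) but fell in MEF (-2.24 ± 0.0795), and C3 did likewise (4.75 ± 0.0366 and -3.06 ± 0.21). In the opposite direction, Il33 and its receptor gene Il1rl1 fell in wound-healing fibroblasts and rose in the others (Il33 4.10 ± 0.0479 and 1.82 ± 0.20, Il1rl1 1.35 ± 0.0333 and 1.51 ± 0.19), as did Wnt7b (2.83 ± 0.56 and 1.34 ± 0.16). Cdkn1a fell in MMTV-CAF (-1.20 ± 0.0225) and did not pass in MEF (0.55 ± 0.32, adjusted p = 0.205).

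**Figure D5:**
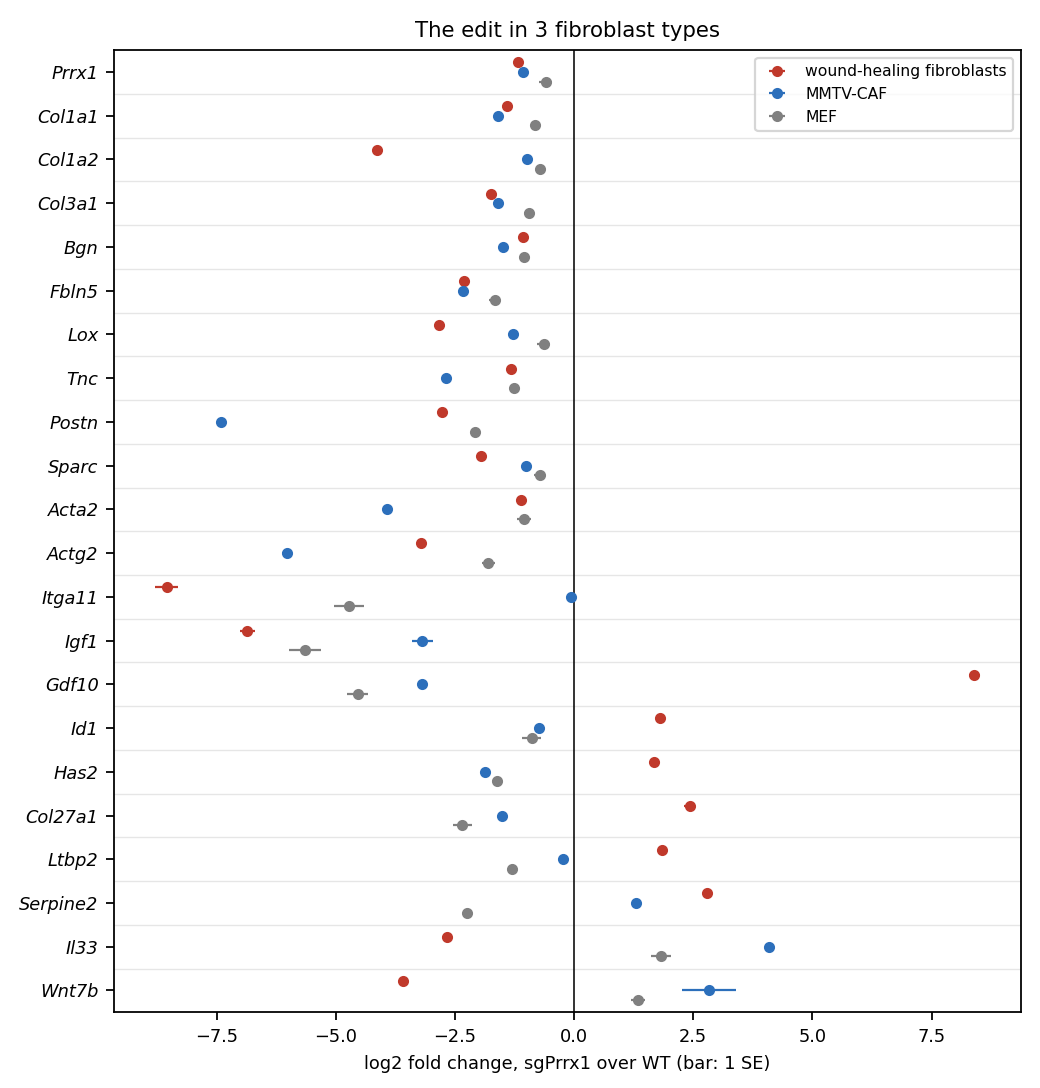
Log2 fold change of sgPrrx1 over WT (x axis, points with bars of 1 SE) for 22 genes named in the text (y axis) in wound-healing fibroblasts (red), MMTV-CAF (blue) and MEF (grey), 3 cultures a group each. Col1a1, Fbln5, Bgn and Tnc are left of 0 in all 3 types, Col1a2 and Lox lie furthest left in wound-healing fibroblasts, and Gdf10, Id1, Has2, Col27a1 and Ltbp2 lie right of 0 only there.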

How the data were processed

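Libraries of the 6 cultures were made from total RNA with the Illumina TruSeq RNA Sample Preparation kit and sequenced as paired reads. They were unstranded, so reads from a gene and an overlapping antisense gene cannot be told apart. The authors deposited 1 table per fibroblast type with raw counts per gene, made, according to the submitters' processing notes and the methods, with Trimmomatic, STAR on mm10 and HTSeq; the annotation and counting options are not given in the sources used here. The 24455 gene names were respelled through RefSeq GRCm38.p6, where 23447 matched; all columns belonged to a sample (0 without).

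The tests used edgeR 4.0.16 under R 4.3.3: filterByExpr, TMM scaling, glmQLFit and glmQLFTest on the 6 cultures, and Benjamini-Hochberg adjusted p under 0.05. Differences between fibroblast types came from the interaction term over 12 cultures. Replicates differed beyond sampling noise (chi-square per degree of freedom 13.6 to 27.2), so none was merged. The floor for genes at 0 was 3 counts over the group, and intervals of depth cover counting error only. The scripts were tested on simulated counts. DESeq2 1.42.0, other scalings and filters, a replicate block and leaving out each culture were tried.

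The members, the 48 gene lists and the naming rule were chosen with earlier results of these data known. The rule takes Prrx1, 10 genes in each direction whose fold change was largest among those passing the test with a mean of at least 10 CPM in the higher group, the 5 and 5 whose mean CPM moved most, up to 10 genes with 0 counts in 1 group and at least 100 in every culture of the other, up to 4 lowered and 4 raised members of each list with at least a 2-fold change (where fewer than 2 qualify, those with the largest change), and every member of lists of up to 13. Further list members named in the text were chosen after their values were seen. Some genes are not reported here.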

Additional observations from a re-analysis of the deposited data

Results flagged for a closer look

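In 12 genes, chosen after their values were seen, editing moved the wound-healing fibroblasts one way and sgPrrx1 MMTV-CAF or sgPrrx1 MEF the other. The adjusted p was under 0.05 in both types (edgeR). These genes are examples, and opposite movement was not particular to them. Fn1, Ctgf and Jag1, among other genes named above, also rose in wound-healing fibroblasts and fell in both other types. The share over all genes was not counted. Passing the edgeR interaction term was part of the rule that chose the 20 differences below, so it is not added support. Values are log2 fold changes in wound-healing fibroblasts minus those in the other type.

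Gdf10 differed by 11.59 from MMTV-CAF and 12.91 from MEF, Id1 by 2.54 and 2.69, Has2 by 3.55 and 3.29, Col27a1 by 3.92 and 4.75 and Ltbp2 by 2.07 and 3.13. These 5 genes rose in the wound-healing cultures and fell in both other types. Serpine2 differed from MEF by 5.02 and C3 from MEF by 9.44. From MMTV-CAF, Cdkn1a differed by 2.37 and Smad7 by 3.49. Il33 differed by -6.76 and -4.50, Il1rl1 by -3.53 and -3.70 and Wnt7b by -6.41 and -4.95, having fallen in the wound-healing cultures and risen in the others. Wnt7b averaged only 0.0305 CPM in WT MMTV-CAF and 0.232 in sgPrrx1 MMTV-CAF. The types come from different tissues and, for MMTV-CAF, another strain (FVB/NJ), which cannot be told apart from the cell type. Groups of 3 are too small for the test of single deviating samples.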

How the results depend on the processing

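The fall of Prrx1 and the 4 gene counts kept their direction and stayed within 1.5 times the reported value under DESeq2, RLE and upper-quartile scaling, no filter, a minimum of 10 counts per culture, the replicate block and without each culture. The counts of 2-fold changes ranged from 717 lower and 842 higher with that minimum, a filter that leaves out genes at 0 in 1 group, to 1048 and 1287 with no filter. Without each culture in turn, Prrx1 changed by -1.21 to -1.16, 5264 to 5336 genes were lower, 5068 to 5185 higher, 982 to 1015 lower by 2-fold and 1174 to 1252 higher by 2-fold. The counts that differed from MMTV-CAF were 11088 to 11200 and from MEF 7647 to 7709. The replicate numbers do not pair the cultures: same-numbered WT and sgPrrx1 cultures had correlations of deviations of -0.0867, -0.0721 and -0.0593. With the replicate block, Prrx1 changed by -1.18, 5362 genes were lower and 5157 higher, 974 and 1164 by 2-fold, and 11078 and 8719 genes differed from MMTV-CAF and MEF.

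Of 271 named genes with a fit beside Prrx1, 7 changed their side of the threshold in some alternative and none reversed: Atp6v0c (adjusted p = 0.0934 with the replicate block, 0.0503 to 0.058 without a WT culture), Podn, B2m, Cebpb, Eif2s3y, Serpinh1 and Smad2. The cause of these changes was not tested. With 3 cultures per group of unstated independence, the spread may be technical, and at this depth a gene with no counts in a culture could be at up to 0.0333 to 0.0415 CPM there. The median log2 fold change of all tested genes was within 0.0214 of 0 in these alternatives. The medians of 10 lists, cadherins and chemokines and cytokines among them, changed sign in some alternative.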

Other observations

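Lists outside the matrix, signaling and metabolic groups were described as well. Of 18 tested chondrogenic and osteogenic genes 7 were lower and 7 higher, shares near those of all tested genes. At 2-fold there were 4 lower and 4 higher (22.2% each, beside 7.06% and 8.57% of all tested genes). Alpl, the tissue-nonspecific alkaline phosphatase of mineralizing cells, rose from 2.001, 2.01 and 1.42 CPM in WT to 16.5, 15.2 and 14.9 in sgPrrx1 (3.10 ± 0.12), and the cartilage factor gene Sox5 by 2.14 ± 0.15. Runx2, the osteoblast factor, rose by 0.64 ± 0.0275, while Omd and Spp1 fell as described for the matrix. The median of the tested members was -0.211 on the log2 scale and 0.248 without a filter on low counts.

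Replication-dependent histone genes, whose transcripts mostly lack poly(A) tails, were lower in 13 and higher in 0 of 61 cases, and 48 did not pass. The share called lower was below the 39.3% of all tested genes. Their summed level was low, at 53.5 to 56.7 CPM in WT and 35.7 to 40.1 in sgPrrx1.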
